A study of Mus musculus with 4 samples.

Results

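The enzymes that build glycerophospholipids and triglycerides were followed by symbol in RNA sequencing of EpCAM-positive lung cells of mouse embryos. A list of 34 genes was taken, and all 34 were found among the 23444 genes of the deposited table. They comprise 9 genes that make phosphatidic acid or remove its phosphate, 6 of the phosphatidylcholine branch, 7 of the phosphatidylethanolamine and phosphatidylserine branch, 6 of the phosphatidylglycerol, cardiolipin and phosphatidylinositol branch, 4 lysophospholipid acyltransferases of acyl chain remodelling, and 2 of triglyceride synthesis. At E18.5 (day of gestation), 2 libraries were made from embryos whose lung epithelium had lost Emc3 by conditional knockout during development (KO) and 2 from wild-type embryos (WT). Emc3 encodes a core subunit of the endoplasmic reticulum membrane protein complex, which inserts membrane proteins, and EpCAM is an epithelial surface protein by which the cells were sorted. The sources used here do not name the promoter that drives the recombinase, the strain, or the number of embryos or litters behind a library. Values after ± give the SD (n = 2 libraries in each group), and the p-values reflect the spread between these samples only, which may be technical.

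Near birth the alveolar type 2 (AT2) cell fills its lamellar bodies with surfactant, a lipid film made mostly of disaturated phosphatidylcholine with a share of phosphatidylglycerol. Phosphatidic acid is formed by acylating glycerol 3-phosphate at both free positions. Dephosphorylated to diacylglycerol, it feeds phosphatidylcholine, phosphatidylethanolamine and triglyceride, and activated with CTP to CDP-diacylglycerol it feeds phosphatidylglycerol, cardiolipin and phosphatidylinositol. Finished phosphatidylcholine is remodelled by lysophosphatidylcholine acyltransferases, of which LPCAT1 puts palmitate on the surfactant lipid.

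Each library carries its group and the number that opens its column heading, 27 or 35, which the labels do not explain. Where a group has a pair of values, that of number 27 comes before that of 35. The headings call KO 27 and KO 35 mutant and WT 27 and WT 35 control, whereas for 2 of the 4 libraries the sample title with the same number gives the opposite genotype. All directions follow the headings. Emc3 stood at 2.28 and 2.33 RPKM (mapped reads scaled by gene length and library size, the authors' unit) in the KO libraries, against 14.2 and 18.0 RPKM in the WT libraries. Its log2 fold change was -2.36 (limma adjusted p = 0.0242), and under the groups of the titles it was 0.17. The 8 AT2 markers summed to 11163 and 10962 RPKM in the KO libraries, against 9632 and 15163 RPKM in WT 27 and WT 35, and all 8 reached 1 RPKM in every library. Most of each sum was Sftpc. Among the 8 only Abca3 had groups that did not overlap, at 59.2 and 51.5 RPKM in KO, against 70.1 and 90.0 RPKM in WT. Its log2 fold change was -0.52 (limma adjusted p = 0.308). WT 35 stood apart by its club cell markers, which summed to 10016 RPKM there, against 1729 and 2889 RPKM in KO 27 and KO 35 and 2807 RPKM in WT 27. Most of that sum was Scgb1a1, at 9678 RPKM in WT 35. Scgb3a2 and Cyp2f2 were lower in both KO libraries. Scgb3a2 was at 90.4 and 108 RPKM in KO, against 117 and 159 RPKM in WT. Cyp2f2 was at 78.5 and 82.2 RPKM in KO, against 134 and 179 RPKM in WT. The 6 immune markers summed to 9.88 and 6.29 RPKM in the KO libraries, against 3.79 and 2.80 RPKM in the WT libraries. Both KO libraries were also below both WT libraries in the sums of the 6 AT1 markers (185 and 188 RPKM in KO, against 273 and 201 RPKM in WT) and of the 6 ciliated cell markers (95.2 and 97.3 RPKM in KO, against 134.9 and 208.6 RPKM in WT). The AT1 markers did not lie alike: only Cav1 and Rtkn2 were lower in both KO libraries. The groups of Ager and Hopx overlapped, as did those of Pdpn and Aqp5, whose log2 fold changes were 0.16 and 0.01. The part of these markers in the values below was not tested, and in such bulk samples fewer cells of a type and less RNA per cell cannot be told apart.

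The promoters of 4 of the genes are shown because these genes carry the values described below: Lpcat1 has the highest level, Gpam lies lower in both KO libraries, and Lpin2 and Chka lie higher in both. Each window is the 250 bases before the outermost start site that the promoter table used here lists for the gene (RefSeq, GRCm38.p6, the assembly that the authors' mm10 names), written 5′ to 3′ on the strand of the gene. The windows lie at chr13:73466981-73467230 on the plus strand (Lpcat1), chr19:55127239-55127488 on the minus strand (Gpam), chr17:71183282-71183531 on the plus strand (Lpin2) and chr19:3851523-3851772 on the plus strand (Chka). The RefSeq gene records of Chka, which begins at 3851585, and of Gpam, which begins at 55127319 on the minus strand, reach into their windows, so the later bases of both windows lie inside the gene record. Capitals mark matches to the motifs named after the sequences.
Lpcat1: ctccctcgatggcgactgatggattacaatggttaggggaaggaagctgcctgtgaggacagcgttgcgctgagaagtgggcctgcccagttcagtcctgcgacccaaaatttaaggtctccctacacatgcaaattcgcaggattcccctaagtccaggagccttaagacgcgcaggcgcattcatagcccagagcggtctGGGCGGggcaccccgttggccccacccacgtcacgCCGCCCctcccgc
Gpam: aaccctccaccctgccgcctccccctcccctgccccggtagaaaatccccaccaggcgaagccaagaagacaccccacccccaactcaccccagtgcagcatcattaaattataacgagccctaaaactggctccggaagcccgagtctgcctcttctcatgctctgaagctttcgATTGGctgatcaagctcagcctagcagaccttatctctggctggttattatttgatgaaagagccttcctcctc
Lpin2: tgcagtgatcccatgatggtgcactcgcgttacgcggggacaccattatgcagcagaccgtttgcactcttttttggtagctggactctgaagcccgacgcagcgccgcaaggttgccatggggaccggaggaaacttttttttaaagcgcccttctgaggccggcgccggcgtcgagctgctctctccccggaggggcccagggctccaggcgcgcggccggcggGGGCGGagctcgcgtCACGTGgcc
Chka: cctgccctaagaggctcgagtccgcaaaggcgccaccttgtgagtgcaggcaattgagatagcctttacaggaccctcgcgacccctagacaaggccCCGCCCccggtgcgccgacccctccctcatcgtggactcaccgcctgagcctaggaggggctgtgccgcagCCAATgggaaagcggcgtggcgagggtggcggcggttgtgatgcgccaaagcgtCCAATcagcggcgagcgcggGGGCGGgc

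The motifs were searched on both strands: the GC box GGGCGG, the CCAAT box CCAAT, the E-box CACGTG, a site of the lipid-responsive factor SREBP written TCACNCCAC, and the element of the stress factors ATF4 and CHOP written TGATGNAAT. The Lpcat1 window held 2 GC boxes, the Chka window 2 GC boxes and 2 CCAAT boxes, the Lpin2 window 1 GC box and 1 E-box, and the Gpam window 1 CCAAT box. Promoter entries were found for 28 of the 34 genes, with 42 start sites in all. Of these 42 windows, 54.8% held a GC box and 38.1% a CCAAT box, where 32.7% and 33.8% of 32851 windows of all genes did. E-boxes stood in 4.76% of the members' windows and in 6.02% of all windows. The SREBP site was found in 2 overlapping windows of 1 gene, Pcyt1a (1.05% of all windows), and the ATF4 and CHOP element in 0 of 42 (0.816% of all windows). A match describes these letters and is not a measured binding site.

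Most of the enzymes were expressed at low to moderate levels, with 1 far above the rest. Averaged over the 4 libraries, Lpcat1 exceeded 100 RPKM, 7 genes lay between 10 and 100, 23 between 1 and 10, and 3 below 1 (Pcyt1b, Pemt and Lpin3). The 7 were Lpin2, Gpam, Chka, Pgs1, Pcyt1a, Cds1 and Lpcat3, so that each branch leading to phosphatidylcholine and phosphatidylglycerol had at least 1 gene at that level, while no gene of the phosphatidylethanolamine and phosphatidylserine branch or of triglyceride synthesis reached it. Lpcat1 alone made up 60.2% and 59.8% of the summed RPKM of the 34 genes in the KO libraries, against 60.3% and 63.3% in WT 27 and WT 35. Within pairs of isoenzymes 1 form prevailed in all 4 libraries: Pcyt1a gave 93.9% to 97.8% of the 2 Pcyt1 genes, Cds1 78.0% to 85.5% of the 2 Cds genes, Chka 63.3% to 72.6% of the 2 choline kinase genes, and Lpin2 88.8% to 93.4% of the 3 lipin genes. These shares compare levels per length on the RPKM scale.

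**Figure D1:**
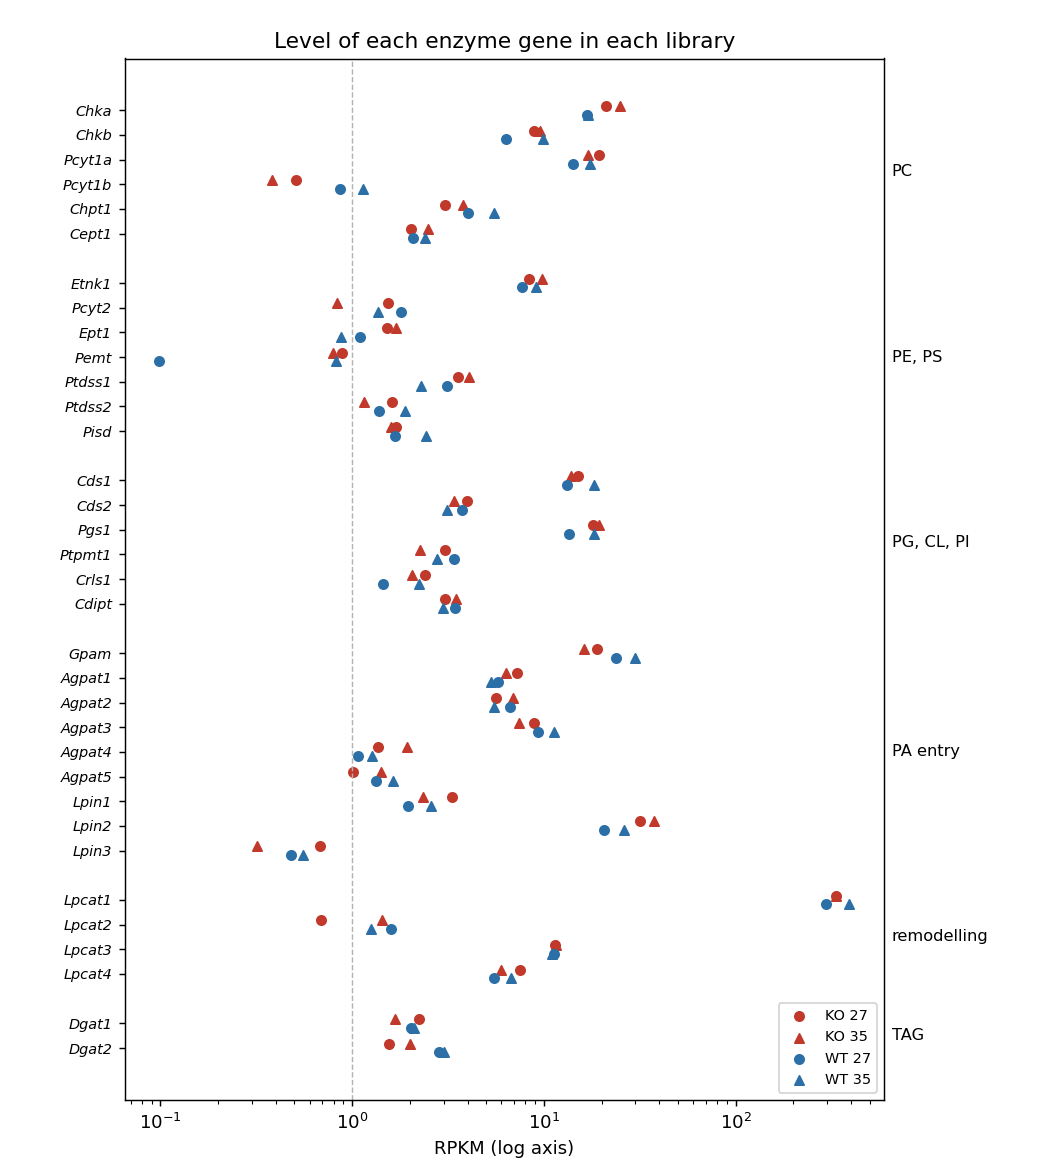
RPKM of the 34 enzyme genes in each library on a log axis, KO in red above WT in blue, circles for number 27 and triangles for 35, with the 1 RPKM filter dashed. The genes are grouped by step (PC phosphatidylcholine, PE phosphatidylethanolamine, PS phosphatidylserine, PG phosphatidylglycerol, CL cardiolipin, PI phosphatidylinositol, PA phosphatidic acid, TAG triglyceride), and Lpcat1 stands alone above 100 RPKM.

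None of the enzymes passed the test for a difference between KO and WT, and the list as a whole lay where the other genes lay. The test was limma on log2(RPKM + 1) over 10128 genes, those that reached 1 RPKM in 2 or more libraries, and it took in 31 of the 34 genes. Past a Benjamini-Hochberg adjusted p of 0.05 were 0 of the 31, where 0.0296% of all tested genes were called higher and 0.0395% lower, and the lowest adjusted p among the enzymes was 0.251 (limma). At an unadjusted limma p under 0.05 stood 3 higher and 2 lower genes of the 31, against 8.17% and 5.68% of all tested genes, so the share of 16.1% in both directions was close to the 13.8% of the background. That count of 5 was 0 under the groups of the sample titles, and it was lower with any library left out. With a filter of 10 RPKM, which kept 8 of the enzymes, it was 3. The shares of all tested genes under these settings were not taken. The median log2 fold change was 0.03 over the 31 genes and 0.06 over all tested genes, with 18 positive and 13 negative. Both KO libraries lay above both WT libraries for 7 of the 31 genes and below them for 4, where 30.0% of all tested genes lay above and 16.3% below.

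The size of difference that the data allow was bounded by the 95% interval of each log2 fold change. For 30 of the 31 genes the interval lay within 1 log2 unit of 0 on the log2(RPKM + 1) scale, as it did for 87.6% of all tested genes. The exception was Lpin2, whose upper bound was 1.001. For 8 of the 31 the interval lay within 0.5. Such an interval does not exclude a smaller difference in either direction, and it is not a limit of detection. Differences above 0.5 also went uncalled, as for Lpin2 (0.55) and Gpam (-0.57). On this scale the differences of genes near 1 RPKM are understated. Over the 31 genes the median absolute difference was 0.21 between KO 27 and KO 35, 0.24 between WT 27 and WT 35, and 0.20 between the group means (log2 scale). Over all tested genes the same values were 0.16, 0.19 and 0.17. A mean of 2 libraries varies less than a single library, so the difference between means is not directly comparable with the others. WT 35 lay above WT 27 for 21 of the 31 genes (67.7%), and for 55.7% of all tested genes.

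**Figure D2:**
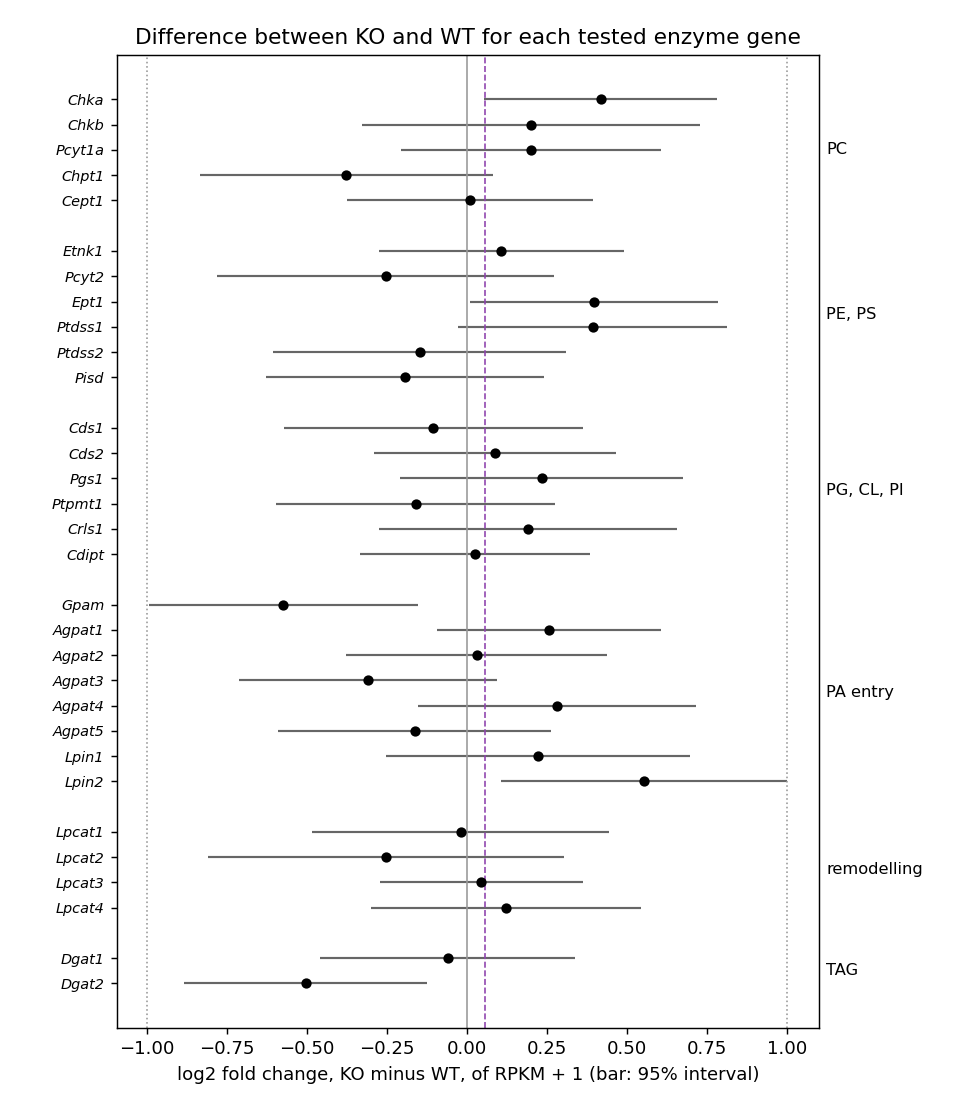
Log2 fold change, KO minus WT, of RPKM + 1 for the 31 tested enzyme genes (points) with 95% intervals from limma (bars). The solid line marks 0, dotted lines mark 1 log2 unit in either direction, and the purple dashed line marks the median of all tested genes, 0.06, with the intervals of Chka, Ept1, Lpin2, Gpam and Dgat2 not reaching 0.

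The entry into the pathway held the lowest and the highest log2 fold change of the tested enzymes, Gpam and Lpin2, on the log2(RPKM + 1) scale. With a pseudocount of 0.1 the order differed: Dgat2 (-0.70) lay below Gpam (-0.60), and Ept1 (0.67) lay above Lpin2 (0.57). Gpam encodes the mitochondrial glycerol 3-phosphate acyltransferase, which makes lysophosphatidic acid (chromosome 19, 55067635 to 55127319, GRCm38). It stood at 19.0 and 16.3 RPKM in the KO libraries, against 23.9 and 29.8 RPKM in the WT libraries. Both KO libraries were the low ones and the groups did not overlap. The log2 fold change was -0.57 (SE 0.17, 95% interval -0.99 to -0.15), which did not pass (limma adjusted p = 0.251).

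Lpin2 encodes a lipin, a phosphatase that turns phosphatidic acid into diacylglycerol (chromosome 17, 71183532 to 71249818). It was at 31.6 and 37.7 RPKM in the KO libraries, against 20.5 and 26.2 RPKM in the WT libraries, with both KO libraries above both WT libraries. The log2 fold change was 0.55 (SE 0.18, limma adjusted p = 0.288). The other lipins were lower throughout: Lpin1 averaged 2.82 ± 0.688 RPKM in KO and 2.27 ± 0.450 RPKM in WT, and Lpin3 0.499 ± 0.255 RPKM in KO and 0.517 ± 0.0535 RPKM in WT. Since Gpam and Lpin2 lay apart in opposite directions, their ratio within a library, which library scaling cannot move, was formed after the values were seen. Gpam over Lpin2 was 0.603 and 0.432 in the KO libraries, against 1.17 and 1.14 in the WT libraries. Lpin2 was thus the more abundant of the pair in both KO libraries and Gpam in both WT libraries. That the ratio separates the groups follows from the choice of these genes and adds no support to either difference.

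The 5 Agpat genes encode acyltransferases that were named for acylating lysophosphatidic acid, the roles of AGPAT1 and AGPAT2 being the best established. Agpat1 was at 7.25 and 6.33 RPKM in the KO libraries, against 5.76 and 5.27 RPKM in the WT libraries, and Agpat4 at 1.37 and 1.93 RPKM against 1.07 and 1.27 RPKM in WT. Agpat3 was at 8.86 and 7.45 RPKM in the KO libraries, against 9.35 and 11.4 RPKM in the WT libraries. These 3 did not overlap between the groups, in either direction, and had limma adjusted p-values from 0.477 to 0.546. Of the 8 tested entry genes 3 lay above and 2 below, where 30.0% and 16.3% of all tested genes did. Agpat2, which lipodystrophy links to fat storage in humans and mice, averaged 6.26 ± 0.906 RPKM in KO and 6.10 ± 0.822 RPKM in WT, and Agpat5 1.22 ± 0.285 and 1.48 ± 0.212 RPKM, both with overlapping groups. The median log2 fold change of the 8 tested entry genes was 0.13.

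**Figure D3:**
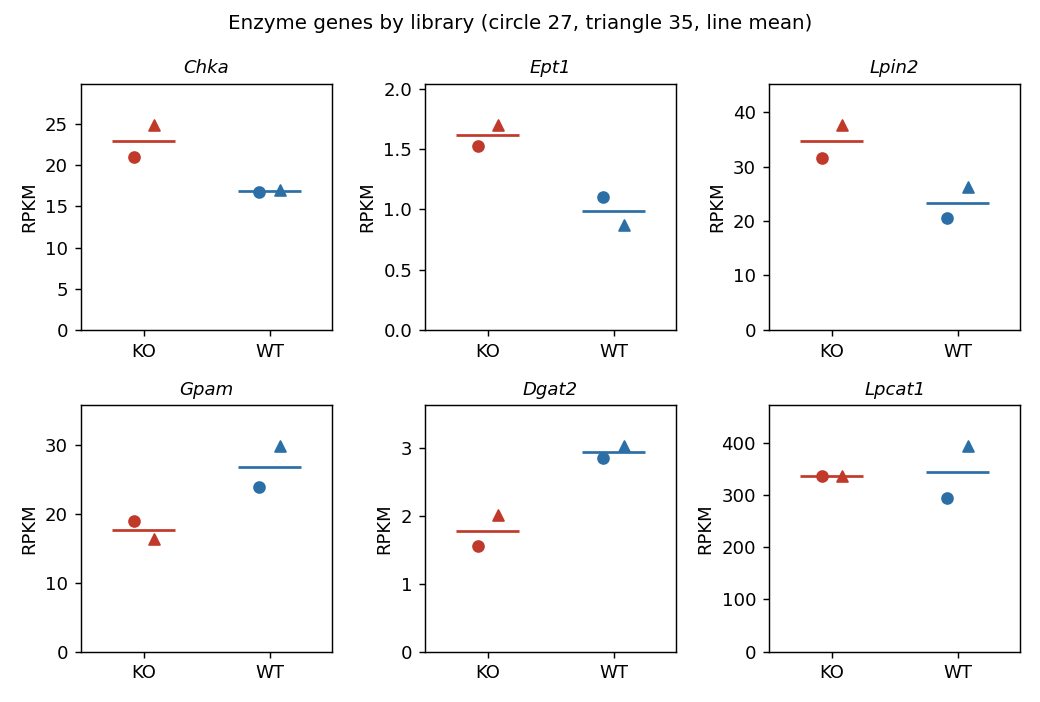
RPKM by library for Chka, Ept1, Lpin2, Gpam, Dgat2 and Lpcat1, with KO in red left of WT in blue, circles for number 27, triangles for 35 and lines for group means; each axis starts at 0. The 5 genes with an unadjusted limma p under 0.05 show groups that do not overlap, and the WT libraries of Lpcat1 lie on either side of its KO libraries.

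In the phosphatidylcholine branch Chka, of the first step, was higher in both KO libraries, and Chpt1, of the last step, was lower. Of the 5 tested genes of the branch 1 thus lay above and 1 below. Over all tested genes 30.0% lay above and 16.3% below, and neither Chka nor Chpt1 passed the test. Chka encodes choline kinase alpha, which phosphorylates choline (chromosome 19, 3851585 to 3894369). It was at 21.0 and 24.9 RPKM in the KO libraries, against 16.8 and 16.9 RPKM in the WT libraries. The WT libraries were nearly equal and both KO libraries lay above them, with a log2 fold change of 0.42 (SE 0.15, limma adjusted p = 0.315). Chkb, the second choline kinase, was at 8.92 and 9.57 RPKM in the KO libraries, against 6.33 and 9.84 RPKM in the WT libraries, where the WT libraries enclosed the KO libraries.

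Pcyt1a encodes CCT alpha, which activates phosphocholine with CTP and is the rate-limiting enzyme of the branch (chromosome 16, 32430921 to 32475065). It stood at 19.4 and 17.0 RPKM in the KO libraries, against 14.1 and 17.5 RPKM in the WT libraries. The groups overlapped, and the log2 fold change was 0.20 (95% interval -0.21 to 0.61, limma adjusted p = 0.659). It was 0.11 without KO 27, 0.054 without WT 27 and 0.35 without WT 35. Pcyt1b, its isoenzyme, was at 0.510 and 0.381 RPKM in the KO libraries, against 0.860 and 1.15 RPKM in the WT libraries. Both KO libraries were lower, but the gene reached 1 RPKM in 1 library only and was not tested.

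Chpt1 encodes cholinephosphotransferase, which joins CDP-choline to diacylglycerol (chromosome 10, 88469513 to 88503970). It was at 3.05 and 3.81 RPKM in the KO libraries, against 4.04 and 5.51 RPKM in the WT libraries, with both KO libraries lower. The log2 fold change was -0.38 (SE 0.18, limma adjusted p = 0.447), and -0.19 without WT 35 or -0.21 with a pseudocount of 5. Cept1, which performs the same step for choline and ethanolamine, averaged 2.26 ± 0.331 RPKM in KO and 2.24 ± 0.237 RPKM in WT. Chpt1 made up 60.1% and 60.4% of the 2 genes in the KO libraries, against 66.1% and 69.6% in WT 27 and WT 35.

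Among the genes of phosphatidylethanolamine and phosphatidylserine, Ept1 and Ptdss1 were at higher levels in both KO libraries. Ept1 (now Selenoi), an ethanolaminephosphotransferase (chromosome 5, 30232581 to 30272430), was at 1.53 and 1.70 RPKM in the KO libraries, against 1.10 and 0.870 RPKM in the WT libraries. Its log2 fold change was 0.40 (SE 0.16, limma adjusted p = 0.349), and 0.67 with a pseudocount of 0.1 or 0.14 with 5. Ptdss1, a base-exchange phosphatidylserine synthase that uses phosphatidylcholine, was at 3.59 and 4.08 RPKM in the KO libraries, against 3.12 and 2.27 RPKM in the WT libraries (log2 fold change 0.39, limma adjusted p = 0.388; 0.23 without WT 35). The groups of both genes did not overlap. Of the 6 tested genes of the branch 2 thus lay above and 0 below, where 30.0% and 16.3% of all tested genes did.

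The other genes of that branch overlapped between the groups. Etnk1, an ethanolamine kinase, was the most abundant of them at 9.12 ± 1.002 RPKM in KO and 8.40 ± 0.976 RPKM in WT. Pcyt2, whose enzyme activates phosphoethanolamine with CTP, averaged 1.19 ± 0.497 and 1.58 ± 0.298 RPKM, Ptdss2 1.38 ± 0.325 and 1.64 ± 0.363 RPKM, and the phosphatidylserine decarboxylase gene Pisd 1.64 ± 0.0650 and 2.04 ± 0.530 RPKM. Pemt, whose enzyme methylates phosphatidylethanolamine to phosphatidylcholine and is known mainly from liver, was at 0.885 and 0.795 RPKM in the KO libraries, against 0.0987 and 0.822 RPKM in the WT libraries. It stayed below 1 RPKM in every library and was not tested.

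The phosphatidylglycerol branch had no gene with separate groups among its 6, where 30.0% of all tested genes lay above and 16.3% below. Pgs1, the synthase that commits CDP-diacylglycerol to phosphatidylglycerol (chromosome 11, 117986297 to 118024011), was at 18.1 and 19.3 RPKM in the KO libraries, against 13.6 and 18.3 RPKM in the WT libraries. The log2 fold change was 0.23 (SE 0.18, limma adjusted p = 0.635), with 0.031 without WT 27 and 0.44 without WT 35. Ptpmt1, the phosphatase that completes phosphatidylglycerol, averaged 2.66 ± 0.579 RPKM in KO and 3.07 ± 0.437 RPKM in WT. On the way from phosphatidylglycerol, the cardiolipin synthase gene Crls1 averaged 2.22 ± 0.241 and 1.84 ± 0.559 RPKM.

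The CDP-diacylglycerol synthase genes, which open this branch, were at 14.5 ± 0.946 RPKM in KO and 15.8 ± 3.63 RPKM in WT (Cds1) and at 3.70 ± 0.410 and 3.42 ± 0.444 RPKM (Cds2). Cdipt, the phosphatidylinositol synthase gene, averaged 3.28 ± 0.306 and 3.21 ± 0.316 RPKM. All 6 genes of the branch were tested, 0 of them had an unadjusted limma p under 0.05, and their log2 fold changes ran from -0.16 to 0.23.

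Remodelling was led by Lpcat1 in KO and WT alike. Lpcat1 (chromosome 13, 73467231 to 73516420) was at 335.7 and 335.9 RPKM in the KO libraries, against 295.0 and 392.7 RPKM in the WT libraries, and ranked 42 and 41 among all genes in the KO libraries and 45 and 36 in the WT libraries. The KO libraries were nearly equal and lay between the WT libraries. The log2 fold change was -0.02 with a 95% interval from -0.48 to 0.44 (limma adjusted p = 0.974), and it was 0.19 without WT 35 and -0.23 without WT 27. Lpcat1 supplied 94.1% to 95.4% of the RPKM of the 4 Lpcat genes.

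Lpcat3, whose enzyme incorporates polyunsaturated acyl chains, was nearly equal in all 4 libraries, at 11.5 and 11.6 RPKM in the KO libraries, against 11.3 and 11.1 RPKM in the WT libraries. Its groups did not overlap (log2 fold change 0.04, limma adjusted p = 0.911). Lpcat4 averaged 6.75 ± 1.06 RPKM in KO and 6.12 ± 0.875 RPKM in WT. Lpcat2, best known from inflammatory cells where its enzyme also makes platelet-activating factor, was at 0.686 and 1.44 RPKM in the KO libraries, against 1.60 and 1.25 RPKM in the WT libraries. The groups overlapped.

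Of the 2 acyltransferases that complete triglyceride, Dgat2 was lower in both KO libraries. Dgat2 (chromosome 7, 99153663 to 99182713) was at 1.55 and 2.01 RPKM in the KO libraries, against 2.85 and 3.02 RPKM in the WT libraries, with a log2 fold change of -0.50 (SE 0.15, 95% interval -0.88 to -0.13, limma adjusted p = 0.261), and -0.23 with a pseudocount of 5. Dgat1, its unrelated counterpart, was at 2.25 and 1.67 RPKM in the KO libraries, against 2.04 and 2.09 RPKM in the WT libraries, with KO libraries on either side of the WT libraries. Dgat2 made up 40.9% and 54.6% of the 2 genes in the KO libraries, against 58.3% and 59.1% in WT 27 and WT 35.

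Other genes around these steps were taken from a list of 41, of which 31 were tested and 0 passed in either direction (limma). At an unadjusted limma p under 0.05 stood 5 higher and 1 lower, 19.4% of the 31. Of all tested genes 13.8% did so, 8.17% higher and 5.68% lower. Mboat1, a lysophospholipid acyltransferase gene, had the lowest p: it was at 3.87 and 5.58 RPKM in the KO libraries, against 2.55 and 2.23 RPKM in the WT libraries (log2 fold change 0.74, limma adjusted p = 0.208). The lipid droplet genes Fitm2 and Plin3 averaged 2.56 ± 0.176 and 7.31 ± 1.12 RPKM in KO, against 1.58 ± 0.270 and 5.06 ± 0.478 RPKM in WT. Other lipid droplet genes, named after their values were seen, lay differently: Bscl2 and Abhd5 averaged 2.25 ± 0.655 and 20.1 ± 0.0704 RPKM in KO, against 3.27 ± 0.177 and 31.3 ± 11.5 RPKM in WT, with both KO libraries lower, and the groups of Plin2 overlapped. The lipid phosphatase genes Ppap2a and Ppap2c averaged 2.12 ± 0.0963 and 7.31 ± 1.73 RPKM in KO, against 1.31 ± 0.111 and 4.91 ± 0.542 RPKM in WT. The third gene of that family, Ppap2b, also named after its values were seen, averaged 1.38 ± 0.218 RPKM in KO and 1.94 ± 0.413 RPKM in WT, with both KO libraries lower. Tamm41, a mitochondrial CDP-diacylglycerol synthase gene, was at 0.784 and 0.792 RPKM in the KO libraries, against 1.31 and 1.46 RPKM in the WT libraries, and passed the filter only through WT.

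The fold changes that the authors deposited beside the RPKM values differ from the RPKM ratios for a part of these genes that is set by chromosome. For Lpcat3, with almost equal RPKM in all libraries, the authors' deposited table gives a fold change of -2.05 (its minus sign stands for lower in mutant). It gives -2.36 for Cds1, -2.07 for Cdipt and -1.80 for Cept1. In log2 these are -1.24, -1.05 and -0.85, where the log2 RPKM ratios were -0.13, 0.03 and 0.02. Set against the log2 ratio of mean RPKM, the log2 of the deposited fold change lay lower by a median of 1.08 (-0.58 to -1.76) for the 13 enzyme genes on chromosomes 3 to 9, on X and on chromosome 2 beyond the start of Foxa2 at 148042877. For the other 21 genes the median gap was -0.04, with a range from -0.27 to 0.30. All 13 carried a negative deposited fold change, and for 5 of them the RPKM ratio was above 1 (Cept1, Etnk1, Ept1, Cdipt and Lpcat3).

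For those 13 genes the deposited value followed KO 35 alone. When 0.5 times the KO 35 value was set over the WT mean, that is, when KO 27 was counted as 0, the deposited log2 fold change lay between -0.17 and 0.02 of the result. In the RPKM columns the median log2 ratio of KO 27 over KO 35 was -0.03 on these chromosomes and on the others. The lowest p-values among the enzymes in the authors' deposited table were 0.00478 for Pcyt1b, 0.0527 for Dgat2, 0.0669 for Lpin3, 0.0810 for Ptdss2 and 0.0874 for Pisd, all on these chromosomes. Pcyt1b was not among the tested genes; of the 11 tested enzyme genes on these chromosomes 0 had a deposited p-value below 0.05, where 6.97% of all tested genes there did. On the other chromosomes it was 0 of 20, where 0.596% of all tested genes were below 0.05. The deposited fold changes of Gpam (-1.55), Lpin2 (1.44) and Chka (1.36) belong to genes of the other chromosomes, and their gaps to the log2 RPKM ratios were -0.03, -0.04 and -0.0025.

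**Figure D4:**
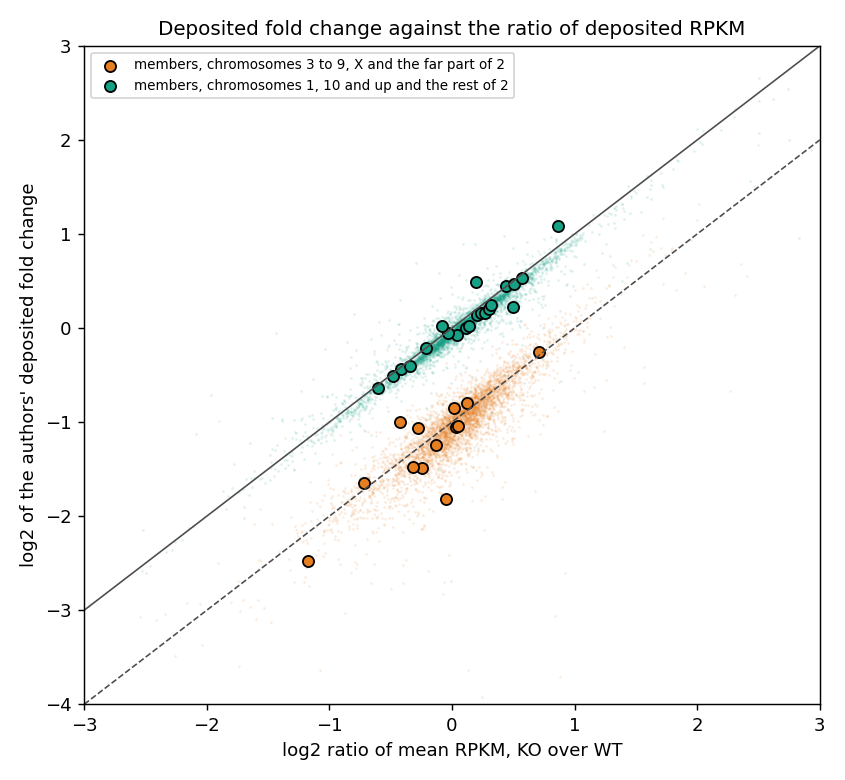
Log2 of the authors' deposited fold change against the log2 ratio of mean RPKM, KO over WT, for the 34 enzyme genes (large points) and for tested genes (small points). Green points on chromosomes 1, 10 and up and most of 2 follow the solid line of equality, and orange points on chromosomes 3 to 9, X and the far part of 2 follow the dashed line 1 log2 unit lower.

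Some of the enzyme genes share exons with a neighbour, and strand is not marked by the library kit, so reads from the shared bases cannot be told apart. In GENCODE M21 (GRCm38), 24.7% of the exon bases of Cept1 overlap Dennd2d, 10.2% of those of Lpcat3 overlap Emg1, 7.93% of those of Chpt1 overlap Sycp3 and 7.65% of those of Pcyt1a overlap Slc51a. On the same strand, 50.7% of the exon bases of Chkb lie in the overlapping gene model Gm44502 and 20.1% of those of Pisd in Gm20671. Gpam, Lpin2, Dgat2 and Lpcat1 shared no exon base with another gene.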

How the data were processed

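RNA of 4 libraries was measured by RNA sequencing. The labels' protocols name the RNeasy Micro kit for RNA and Nextera XT for the libraries. Among the tools in the submitters' processing notes are DESeq, TopHat2 2.0.8, Bowtie2 2.1.0 and Cufflinks 2.0.2, with mm10; the role of each is not stated. Per the file headers, the deposited values are RPKM, with the authors' p-value and signed fold change, a score that is minus the inverse ratio below 1. Whether RPKM or FPKM is meant is not stated.

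Columns were grouped by their headings, which disagree with 2 sample titles. For the 10128 of 23444 genes that reached 1 RPKM in 2 or more libraries, limma 3.58.1 (R 4.3.3) was run on log2(RPKM + 1) (trend, genotype only, 2 residual and 3.65 prior degrees of freedom, two-sided), Benjamini-Hochberg adjusted over all tested genes. Fold changes are KO minus WT on that scale and understate low genes. Low RPKM steps place the value of 1 read within 0.973 to 1.06 of that of KO 27; the absolute depth is not known, and intervals for counting error are left out.

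The enzymes, lists and settings were chosen with earlier results of these data known. Named are Emc3, all 34 enzymes (every library for those with separate groups and for Lpcat1, Pcyt1a, Chpt1, Pgs1, Dgat1 and Dgat2) and the 6 other pathway genes of lowest p. Alternatives were quantile normalization, no trend, no filter, a 10 RPKM filter, pseudocounts of 0.1 and 5, each library left out, a block by heading number and the title groups. Count tests could not be run on RPKM. The chromosome sets were chosen after the values were seen, with chromosome 2 split where genes separate best by the gap between deposited and RPKM fold changes. Positions are from RefSeq GRCm38.p6, matched for 34 of 34 enzymes. Python 3.11.15 with pandas 2.3.3 and matplotlib 3.10.9 was used.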

Additional observations from a re-analysis of the deposited data

How the results depend on the processing

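No enzyme and no other pathway gene passed an adjusted p of 0.05 in limma under any of the 12 other settings. With all 4 libraries in the groups of the headings, the lowest limma adjusted p of an enzyme was 0.170 (Lpin2, replicate block by heading number). With a library left out, the log2 fold change of Gpam ran from -0.73 to -0.42. The number of all genes past the threshold was 7 in the main test, 0 without a filter, 4 with a filter of 10 RPKM, with a pseudocount of 5 and with the title groups, and 9 to 63 with a library left out, where a lone library is assumed to vary like the others. Emc3 lost its call without a filter and with a filter of 10 RPKM (log2 fold change -2.36 in both, adjusted p = 0.171 and 0.0696), and under the title groups it was 0.17.

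Enzymes with separate groups numbered 11 of 31, where 30.0% of all tested genes lay above and 16.3% below. With a filter of 10 RPKM there were 4 of the 8 enzymes left, and the share of all genes at that filter was not taken. With 3 libraries there were 20 to 23 of 31, where 68.1% to 76.4% of all genes separate. The median of the enzymes was 0.12 with a filter of 10 RPKM. Medians of single steps that moved by more than the spread between replicates were as follows. Without WT 27 that of phosphatidylcholine was -0.065, and it ran from there to 0.35 over the libraries left out. That of phosphatidylethanolamine and phosphatidylserine was -0.059 with quantile normalization, 0.11 without a filter, -0.057 with a pseudocount of 0.1, 0.0096 with a pseudocount of 5, and -0.067 to 0.10 with a library left out. That of the entry genes was -0.0099 with a filter of 10 RPKM and 0.016 to 0.12 with a library left out. That of remodelling was -0.048 with quantile normalization and -0.077 to 0.11 with a library left out. That of triglyceride was -0.31 with quantile normalization, -0.39 with a pseudocount of 0.1 and -0.13 with a pseudocount of 5.

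Of the 31 enzymes 18 kept their direction under all settings other than the title groups, among them Gpam, Dgat2, Lpin2, Chka and Ept1. The other 13 reversed under at least 1 of these settings, and 21 of the 318 values of all 31 enzymes were reversed. The title groups set the libraries numbered 35 against those numbered 27 and are left out of these counts. Dgat2, Lpin2 and Chka were higher in number 35 within KO and within WT, so under the titles Dgat2 reverses. Quantile normalization gave -0.025 for Cept1, -0.017 for Cdipt, -0.033 for Agpat2 and -0.014 for Lpcat3. With a library left out the log2 fold changes ran from -0.082 to 0.48 for Chkb, -0.094 to 0.11 for Cept1, -0.33 to 0.12 for Cds1, -0.015 to 0.19 for Cds2, -0.32 to 0.0022 for Ptpmt1, -0.012 to 0.39 for Crls1, -0.052 to 0.10 for Cdipt, -0.096 to 0.16 for Agpat2, -0.23 to 0.19 for Lpcat1, -0.52 to 0.012 for Lpcat2, -0.017 to 0.26 for Lpcat4 and -0.20 to 0.083 for Dgat1. Among genes that kept their direction, Agpat3 was -0.18 without WT 35 and -0.20 without KO 35, and Agpat4 was 0.13 without KO 35. The cause was not tested.

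A replicate block by heading number called 9 genes and 0 enzymes, with Emc3 at an adjusted p of 0.0353. Deviations of same-numbered libraries correlated at 0.148 across 10128 genes, which are not independent, and with 2 pairs this does not show that the numbers pair the samples. The sample titles' own replicate numbers could not be used, since the headings do not carry them. The number of libraries limits the precision.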

Other observations

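The shift of the deposited fold changes was not limited to lipid enzymes. Over 4649 tested genes on chromosomes 3 to 9, on X and on chromosome 2 from Foxa2 (start at 148042877) onward, the log2 of the authors' deposited fold change lay below the log2 ratio of mean RPKM by a median of 1.05 (median gap -1.05), and by chromosome the medians ran from -1.08 to -1.03. Over the 5368 tested genes on chromosomes 1 and 10 to 19 and on chromosome 2 up to Xrn2 (start at 147012755) the median gap was -0.06. In the first set 97.8% of genes had a deposited fold change below 0, against 41.8% with an RPKM ratio below 1; in the second set the shares were 48.2% and 40.6%.

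For the first set, 0.5 times KO 35 over the WT mean matched the deposited value with a median gap of -0.06 and a median absolute deviation of 0.0415, where 0.5 times KO 27 gave a deviation of 0.204. The median log2 ratio of the RPKM of KO 27 over KO 35 was -0.03 in both sets. The authors' deposited p-value was under 0.05 for 324 genes of the first set and 32 of the second. Emc3, on chromosome 6, belongs to the first set. Its deposited fold change of -13.6 is -3.77 in log2, against a log2 RPKM ratio of -2.81, and it is lower in KO by either measure. How the deposited columns were computed was not tested.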
